A study of Rattus norvegicus with 8 samples.

Results

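The miR-30 family is a group of miRNAs that is among the most abundant in the mammalian kidney. The small RNA counts of 8 rat kidneys held 11 mature miRNAs of this family among 620 miRNAs listed. Members were taken by name, as every listed miRNA called rno-miR-30 with a letter from a to e, whichever arm of its hairpin it came from. A miRNA hairpin has a 5p and a 3p arm, and each arm can give a mature miRNA. The 5 members of the 5p arms were rno-miR-30a, rno-miR-30b-5p, rno-miR-30c, rno-miR-30d and rno-miR-30e. The 6 members of the 3p arms were rno-miR-30a*, rno-miR-30b-3p, rno-miR-30c-1*, rno-miR-30c-2*, rno-miR-30d* and rno-miR-30e*, where the asterisk marks the arm that is usually the less abundant one.

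Male Big Blue rats, a transgenic line on the Fisher 344 background that carries a reporter gene for mutations, were given aristolochic acid (AA), a plant toxin that injures the kidney and causes tumours. From an age of 6 weeks, 4 rats were gavaged 5 times a week with the sodium salt of AA (10.0 mg/kg, volume 4 ml/kg), and 4 control animals received 0.9% sodium chloride on the same days. The treatment protocol gives 12 weeks for all rats, whereas the descriptions of the single samples give 12, 13, 14 and 15 weeks for the rats numbered 1 to 4 of either group, beside an age of 18 weeks for each. Each rat gave 1 library from a piece of kidney whose region is not stated. The counts mix the cell types of that piece, and fewer cells of a type cannot be told apart from less RNA per cell.

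A miRNA guides a silencing complex to mRNAs through its seed, the bases 2 to 8 counted from its 5′ end, and members of a family share targets because they share this seed. In the kidney the 5p members of the miR-30 family are known from tubular epithelium and from podocytes, the filtering cells of the glomerulus, where their loss damages the filter and where they restrain Notch signalling. The 3p arms have other seeds and therefore other predicted targets. The mature sequences of 6 of the 11 members were matched by name in RefSeq (build GRCr8), and they are shown because the seed groups the members and because the bases after it decide how well reads of 2 members can be told apart. The seed is in capitals.

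rno-miR-30a: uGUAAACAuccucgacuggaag
rno-miR-30e: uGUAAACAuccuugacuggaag
rno-miR-30c: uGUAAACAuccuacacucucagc
rno-miR-30a*: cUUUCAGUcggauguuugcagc
rno-miR-30c-1*: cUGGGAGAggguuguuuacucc
rno-miR-30c-2*: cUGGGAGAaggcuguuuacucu

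The 3 printed 5p members had the seed GUAAACA in common. miR-30a* had a seed of its own, and miR-30c-1* and miR-30c-2* had the same one. Counted from the 5′ end, miR-30a and miR-30e differed by 1 substitution over their 22 bases, C13U, so that a single sequencing error at this base turns a read of one into a read of the other. miR-30a and miR-30c differed at 5 of 22 positions, all of them behind the seed, and miR-30c-1* and miR-30c-2* at 3 of 22. The rule by which reads that match several miRNAs were counted is not given in the sources used here, and the split of counts between miR-30a and miR-30e is uncertain to that extent. miR-30c is made from 2 hairpins with the same 5p sequence, and its counts are the sum of both. In RefSeq, Mir30a (chr9:33233941-33234011, plus strand) has Mir30c2 (chr9:33253682-33253765, plus strand) as its nearest miRNA gene. Mir30e (chr5:139637450-139637541, minus strand) and Mir30c1 (chr5:139634455-139634543, minus strand) likewise lie next to each other, and both overlap Nfyc, the gene of a subunit of a transcription factor. Mir30b and Mir30d form the third such pair. Outside the family, 1 rat miRNA in RefSeq had the same seed, rno-miR-384-5p (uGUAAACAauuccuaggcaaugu), which had only 6 to 14 counts per rat.

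The libraries held 13736874 to 15525397 counts on miRNAs in the control animals and 13412373 to 15616670 in the AA-treated animals. Normalized counts are these counts scaled by the size factor of the library (median of ratios), which lay between 0.818 and 1.05 in the control animals and between 0.891 and 1.28 in the AA-treated animals. All mature miRNAs are of nearly equal length and a read covers the whole molecule, so that counts of different members can be set side by side, apart from unequal ligation and amplification. Control rat 4 and AA-treated rat 4 stood apart from the other rats in several 3p arms, and results that rest on them are given with and without both. Epithelial miRNAs were looked up beside the kidney label, without another tissue to compare with, so that they cannot settle the tissue. The 18 listed miRNAs of a kidney epithelium list (miR-192, miR-194, miR-215, miR-204, miR-211 and the miR-200 family, both arms) all had counts and summed to 33185 to 75665 CPM (counts scaled to a library total of 1000000) in the control animals. miR-192 alone had 22340 to 66986 CPM in these animals.

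The 5p members of the miR-30 family together took 16.2% to 21.1% of all miRNA counts of a kidney, and this share overlapped between the groups. In control animals 1 to 4 the share was 18.9%, 16.8%, 18.9% and 18.2%. In AA-treated animals 1 to 4 it was 17.5%, 17.1%, 21.1% and 16.2%. The groups overlapped, with a mean of 18.2% ± 1.01 (SD, n = 4) in the control animals and 17.95% ± 2.13 (SD, n = 4) in the AA-treated animals, and AA-treated rat 3 was the highest of all 8. When miR-21 and miR-378, a pair of very abundant miRNAs, were left out of the total, the means were 25.9% ± 1.38 and 26.4% ± 2.15 (SD, n = 4 each). miR-21 took 2.51% to 3.39% of all counts in the control animals and 7.43% to 19.2% in the AA-treated animals. A larger part for miR-21 lowers the share of all other miRNAs. Leaving out both miRNAs does not show the effect of miR-21 alone, which was not tested. The share of the 3p members was 0.307% to 0.547% in control and 0.280% to 0.379% in AA-treated animals. On the scale of normalized counts, the summed 5p members were at 2882116 ± 170067 in the control animals and 2396306 ± 417523 in the AA-treated animals (SD, n = 4 each). Each AA-treated rat except rat 3 was below the lowest control rat on this scale. Whether the family was at the same level or lower after AA treatment thus depended on the scaling, and no test was made for these sums.

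**Figure D1:**
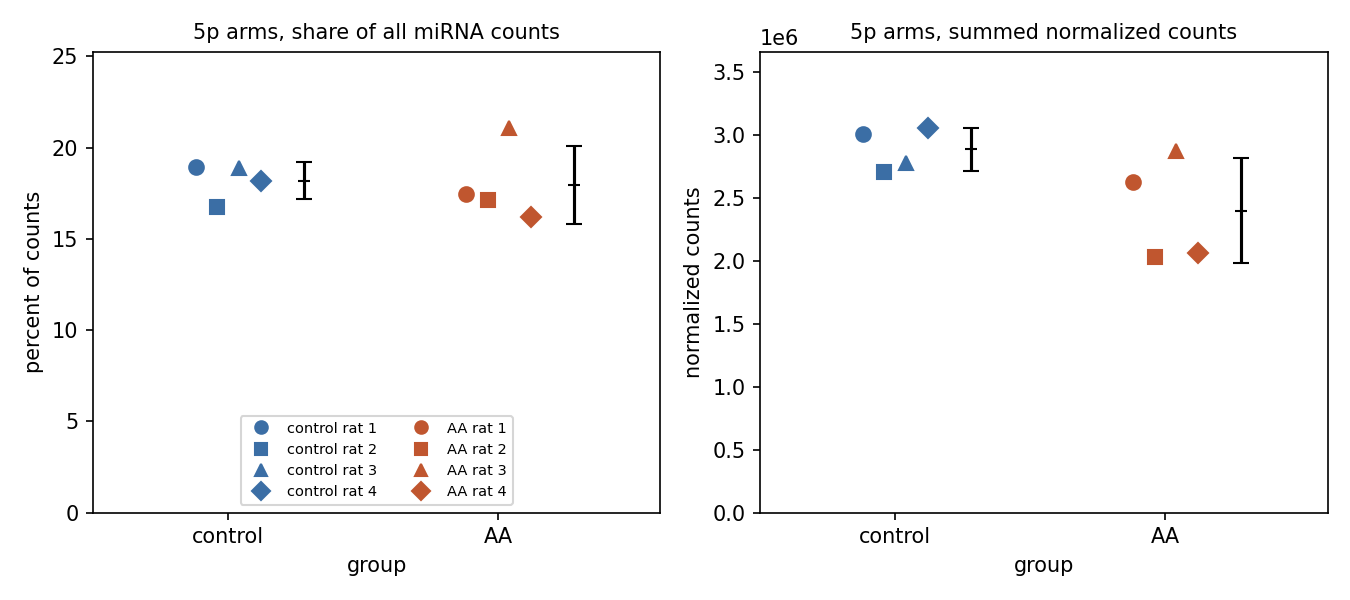
Level of the 5p members of the miR-30 family in each rat, as percent of all miRNA counts of the library (left) and as summed normalized counts (right). Each point is 1 rat, with its shape giving the rat number, and the black marks give the mean and SD of 4 rats. The groups overlap on both scales, with AA-treated rat 3 highest of its group at 21.1% of counts.

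The levels of the 11 members spread over more than 4 orders of magnitude. miR-30a was the third most abundant of all 620 miRNAs in the control animals and the fourth in the AA-treated animals. Among the 5p members, the order miR-30a, miR-30e, miR-30d, miR-30c held in 8 of 8 rats, with control means of 1850153, 606789.8, 255355 and 144402 normalized counts. miR-30b-5p was the lowest of the 5p members at 25417, and the 3p members miR-30a* and miR-30e* were at a like level, 28934 and 27549. These last 3 did not separate, since miR-30a* was above miR-30e* in 7 of 8 rats and miR-30e* was above miR-30b-5p in 2 of 8. miR-30c-2* followed at 7382 and was below miR-30b-5p in every rat. The other 3p members were rare, with control means of 179.9 for miR-30d*, 77.5 for miR-30b-3p and 39.7 for miR-30c-1*. miR-30d* was above miR-30b-3p in 7 of 8 rats, and miR-30b-3p above miR-30c-1* in all 8.

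**Figure D2:**
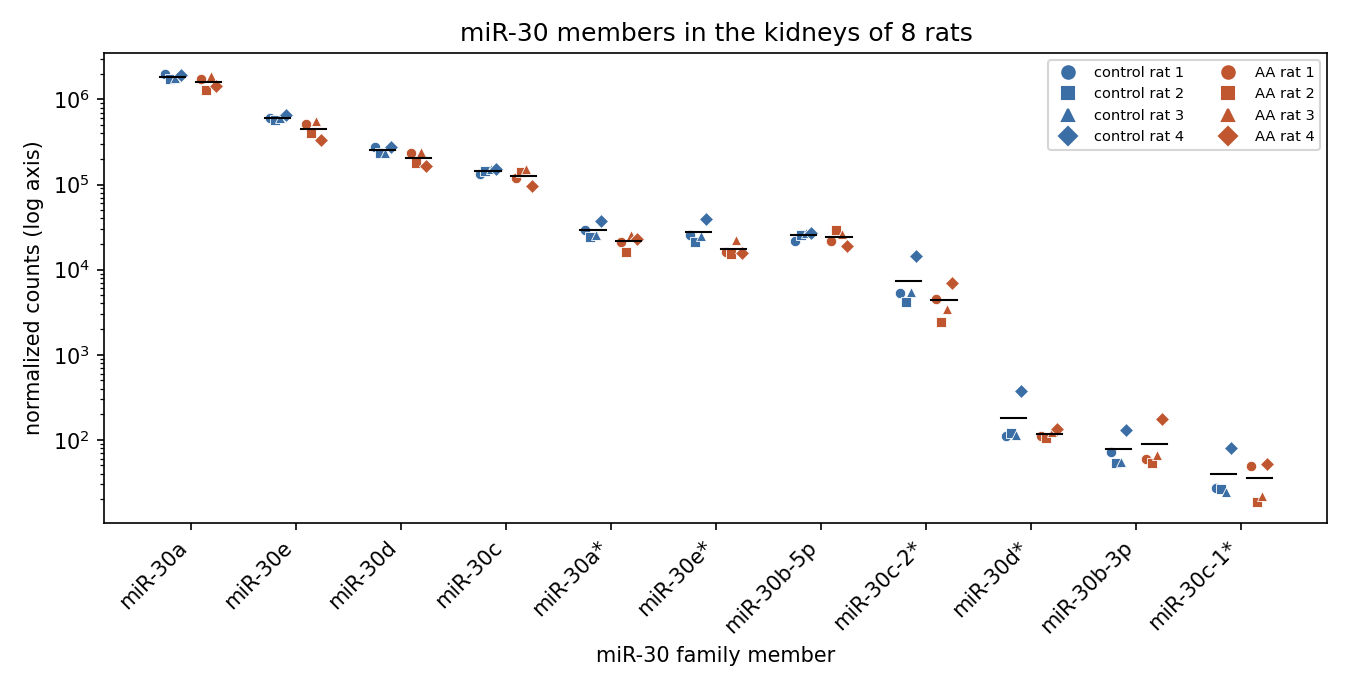
Normalized counts (log axis) of the 11 miR-30 members, ordered by their control mean. Each point is 1 rat, with blue for control and orange for AA-treated animals and the shape giving the rat number, and black bars are group means. The diamonds of the rats numbered 4 lie high for several 3p arms, as for miR-30d* with 374 normalized counts in control rat 4 against 110.2 to 121 in the other control animals.

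For the 5p members among the control animals, the coefficient of variation (SD as percent of the mean) was 6.84% for miR-30a, 5.06% for miR-30e, 8.96% for miR-30d, 6.45% for miR-30c and 10.3% for miR-30b-5p. Over the 240 miRNAs with a mean of at least 100 normalized counts, the median coefficient was 17.5% in the control animals. In the AA-treated animals the 5p members had coefficients of 17.6% to 22.6%, beside a median of 22.6% over the same 240 miRNAs. The 3p members had coefficients of 21.4% for miR-30a* to 71.9% for miR-30d* over the 4 control animals. Over control rats 1 to 3, a comparison added after the data were seen, they had 4.63% to 18.2% and the 5p members 2.85% to 11.3%, beside a median of 10.2% over the 240 miRNAs.

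The study compared AA-treated with control kidneys to find miRNAs changed by a carcinogenic treatment. No member of the miR-30 family passed the thresholds of an adjusted p under 0.05 and a fold change over 1.5 (edgeR, quasi-likelihood test of the 620 miRNAs, Benjamini-Hochberg adjustment, 0 of 11 members higher and 0 of 11 lower). Of all 620 miRNAs, 5.81% were called higher and 3.23% lower by this rule (36 and 20 miRNAs, or 58 and 11 when libraries were scaled by total counts). At an unadjusted p under 0.05, 2 of the 11 members were lower, miR-30e and miR-30e*, where 10.0% of all miRNAs were lower. DESeq2 called 1 member lower, miR-30e* (adjusted p = 0.0436), beside 4.84% of all miRNAs, and limma-voom called none, beside 4.03% of all miRNAs. All 11 members had a mean of at least 10 counts, so that none was lost to low counts.

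The fitted log2 fold change was below 0 for 10 of the 11 members, with a median of -0.32, beside 48.4% below 0 and a median of 0.05 over all 620 miRNAs. The median was -0.22 for the 5 members of the 5p arms and -0.52 for the 6 members of the 3p arms. When libraries were scaled by their total counts instead, the median of all miRNAs moved to 0.31 and that of the members to -0.08, and 6 of the 11 members were below 0. The sign for miR-30a, miR-30c, miR-30b-5p and miR-30c-1* was thus negative with size factors and positive with total counts. Relative to the median of all miRNAs, 10 of the 11 members were lower under this scaling. A change of scaling moves all miRNAs by nearly the same amount. The place of the members relative to this median could therefore hardly change, and it is no second result.

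**Figure D3:**
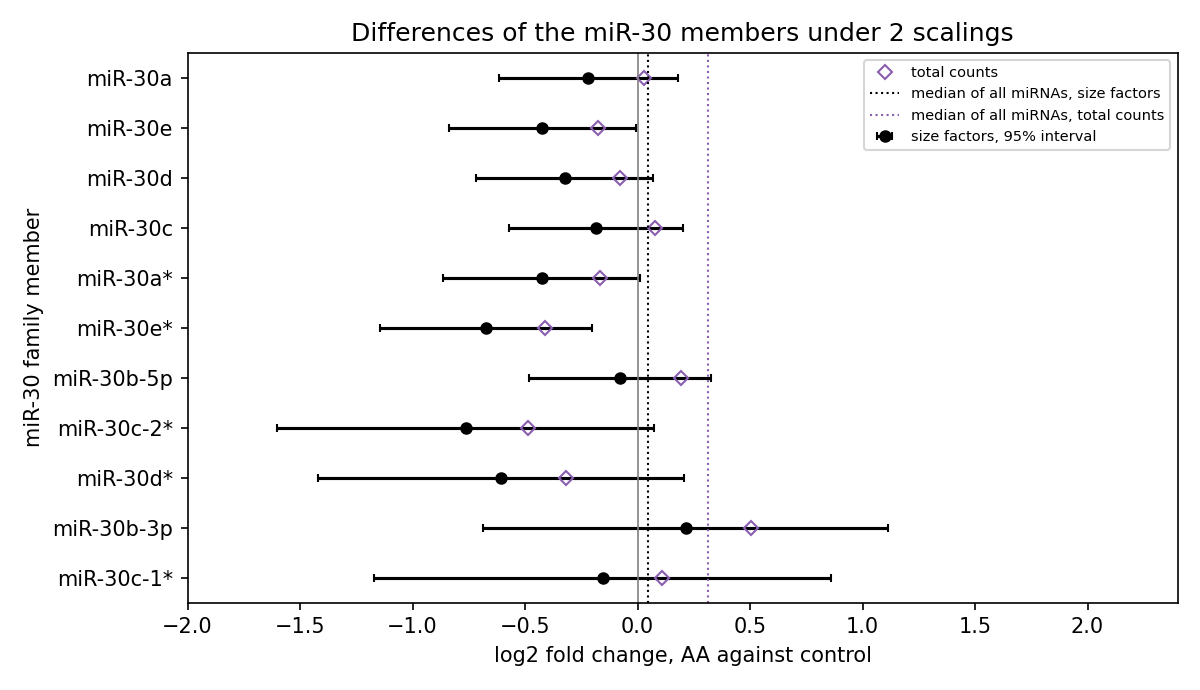
Log2 fold change of AA-treated against control animals for each miR-30 member (n = 4 per group), with size factors (black, 95% interval of the edgeR fit) and with total counts (open diamonds). Dotted lines give the median of all 620 miRNAs under each scaling, 0.05 and 0.31, and 10 of 11 members lie to the left of it under both.

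Among the 5p members, miR-30e had the lowest fold change, with size factors and with total counts. It had 604459, 573626, 601104 and 647971 normalized counts in control animals 1 to 4. In AA-treated animals 1 to 4 it had 509855, 406745, 560610.4 and 332580.5. On this scale every AA-treated rat was below every control rat, as were the AA-treated animals for 6.61% of all 620 miRNAs, and no other member of the family had groups without overlap. The ratio of the means was 0.746, with a 95% interval of 0.559 to 0.994 (edgeR, log2 fold change -0.42, standard error 0.19, adjusted p = 0.200). In CPM the groups overlapped, with 35592 to 40838 in control and 26152 to 41152 in AA-treated animals, where rat 3 was the highest of all 8, and the log2 fold change with total counts was -0.18 (edgeR adjusted p = 0.4997). On normalized counts, the exact permutation test of the 4 rats against 4 gave p = 0.0286, two-sided and unadjusted, the smallest it allows. Groups of this size without overlap always give this value, so that the test adds nothing to the lack of overlap. Without both rats numbered 4, the log2 fold change of miR-30e was -0.26. miR-30e also took a smaller part of the 5p counts of the family in each AA-treated rat. This part was 20.1% to 21.6% in the control animals and 16.2% to 20.0% in the AA-treated animals, a measure within a library that does not depend on the scaling. The gap is narrow, with 20.02% in AA-treated rat 2 and 20.13% in control rat 1. The parts of the other 5p members overlapped between the groups. miR-30a makes up most of the 5p counts, and its split of reads with miR-30e is uncertain. No test was made for this part. AA-treated rat 4 was the lowest at 16.2%, and the other 3 AA-treated animals reached at least 19.4%.

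miR-30a, the most abundant member, had 1969116, 1721594, 1762073 and 1947826 normalized counts in control animals 1 to 4. The AA-treated animals had 1741754, 1275651, 1891562 and 1445959. AA-treated animals 1 and 3 were within the range of the control animals, whereas rats 2 and 4 were below it. The ratio of the means was 0.859 with a 95% interval of 0.652 to 1.13 (edgeR adjusted p = 0.496). As part of the 5p counts, miR-30a took 63.5% to 65.6% in the control animals and 62.8% to 70.2% in the AA-treated animals, with AA-treated rat 4 the highest.

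miR-30d, whose hairpin gene neighbours that of miR-30b, had 234892 to 275496 normalized counts in the control animals. In AA-treated animals 1 to 4 it had 233479, 178909, 239080.3 and 164442, again with rats 2 and 4 well below the others. Its ratio of means was 0.799 (95% interval 0.608 to 1.05, edgeR adjusted p = 0.305). miR-30c, the product of 2 hairpins, had 131831 to 151469.8 in the control animals and 120118, 140439, 150499.9 and 97112 in the AA-treated animals, with a ratio of 0.880 (95% interval 0.673 to 1.15, edgeR adjusted p = 0.527). miR-30b-5p showed the smallest difference of the 5p members, with a ratio of 0.948 (95% interval 0.717 to 1.26, edgeR adjusted p = 0.819). Unlike the other 5p members, its highest value was that of AA-treated rat 2 with 29602 normalized counts, against 18735 to 26563 in the other AA-treated animals and 21616 to 27279.9 in the control animals.

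Among the 3p members, miR-30e* had the smallest p of the family. It had 25173, 21194, 24729 and 39099.9 normalized counts in control animals 1 to 4 and 16289, 15052, 22263 and 15513 in the AA-treated animals. AA-treated animals 1, 2 and 4 were below all control animals, and rat 3 lay among them. The ratio of means was 0.627 with a 95% interval of 0.452 to 0.870 (edgeR, log2 fold change -0.67, standard error 0.22, adjusted p = 0.0759). Without AA-treated rat 3 it passed both thresholds, with a log2 fold change of -0.83 and an adjusted p of 0.0321 in the edgeR test. Without both rats numbered 4 it was -0.40, with an adjusted p of 0.215. miR-30a* had a ratio of 0.745 (95% interval 0.550 to 1.01, edgeR adjusted p = 0.223), with 23851 to 37601 normalized counts in the control animals and 16302 to 25666 in the AA-treated animals.

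The values of the 4 remaining 3p members moved when the rats numbered 4 were left out. miR-30c-2* had 5282, 4211, 5527 and 14506 normalized counts in control animals 1 to 4 and 4502, 2415, 3482 and 6980.4 in the AA-treated animals. Its ratio of means was 0.589 (log2 fold change -0.76, edgeR adjusted p = 0.263), and without both rats numbered 4 its log2 fold change was -0.52. It was -0.21 without control rat 4 alone and -1.08 without AA-treated rat 4 alone, with no call in either case. For miR-30d*, control rat 4 alone had 374 normalized counts, the other control animals 110.2 to 121 and the AA-treated animals 104 to 133. Its log2 fold change of -0.61 became -0.02 without both rats numbered 4. miR-30b-3p, the one member with a log2 fold change above 0 under size factors (0.21, edgeR adjusted p = 0.768), had 178 normalized counts in AA-treated rat 4, 129.5 in control rat 4 and 52.7 to 72.8 in the others. Without both rats numbered 4 its log2 fold change was 0.01. miR-30c-1*, the rarest member with 22 to 66 counts per rat, had 80.6 normalized counts in control rat 4, 52.1 in AA-treated rat 4 and 49.4 in AA-treated rat 1, against 18.7 to 27.0 in the other 5 rats. Its log2 fold change was -0.16 (edgeR adjusted p = 0.856), and 0.20 without both rats numbered 4. Without these rats, 8 of the 11 members were below 0 and none was called by edgeR.

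Since the 2 arms of a hairpin are counted in the same library, their ratio needs no scaling between libraries. The 5p arm was the more abundant one in each of the 6 miR-30 hairpins and each rat. The 5p count was on average 23.0 times the 3p count in the control animals for miR-30e and 65.4 times for miR-30a. It was 372 times for miR-30b and 1809.5 times for miR-30d. For miR-30c the ratio was 24.2 to the 3p arm of the hairpin Mir30c2 and 4580.1 to that of Mir30c1, with the shared 5p count used for both. The ratio was compared between AA-treated and control animals. Over 132 hairpins with both arms at a mean of at least 10 counts, limma called 2.27% changed in either direction, and 0 of the 6 miR-30 hairpins were among them (adjusted p from 0.658 to 0.953). None of the 6 had an unadjusted p under 0.05, by limma or by the exact permutation test. The largest difference was that of miR-30c and miR-30c-2*, 0.49 on the log2 scale (standard error 0.48, limma adjusted p = 0.660), and it was 0.12 without control rat 4, 0.87 without AA-treated rat 4 and 0.51 without both.

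Rats with the number 4 differed from the rest of their groups in the arm ratios of this family. For miR-30a the 5p count was 67.7, 72.2, 69.96 and 51.8 times the 3p count in control animals 1 to 4. In AA-treated animals 1 to 4 it was 82.4, 78.3, 73.7 and 62.7 times the 3p count. For miR-30c and miR-30c-2* the ratio was 10.4 in control rat 4 against 25.0 to 33.9 in the other control animals, and 13.9 in AA-treated rat 4 against 26.7 to 58.1. In all 6 hairpins and both groups, the rat numbered 4 had a lower log2 ratio than the mean of the other 3 rats of its group. The median difference over the 6 hairpins was -1.21 in control rat 4 and -1.02 in AA-treated rat 4. Over the other 126 hairpins, taking the abundant over the lesser arm, the median difference was -0.08 in control rat 4 and -0.14 in AA-treated rat 4, and 38.9% of them were lower in both. Of these other hairpins, 23.8% were below -0.3 in both rats, as were all 6 miR-30 hairpins. This cut lies just above the highest value of the family in these rats, -0.32. All 6 therefore had to pass it, and the 23.8% is no test of the family. The 3p arms carried these differences in control rat 4, where the 5p members were 1.07 to 1.10 times and the 3p members 1.44 to 3.24 times the mean of the other control animals. In AA-treated rat 4 the 5p members were 0.675 to 0.884 times and the 3p members 0.868 to 2.95 times the mean of the other AA-treated animals. The hairpins share arms and genomic loci and are not independent. The authors list the most reads for the last animal of each group, without giving rat numbers. Control rat 4 had the lowest total of miRNA counts of its group, 13736874, and AA-treated rat 4 the highest of its group, 15616670. The cause of the differences in the rats numbered 4 was not tested.

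**Figure D4:**
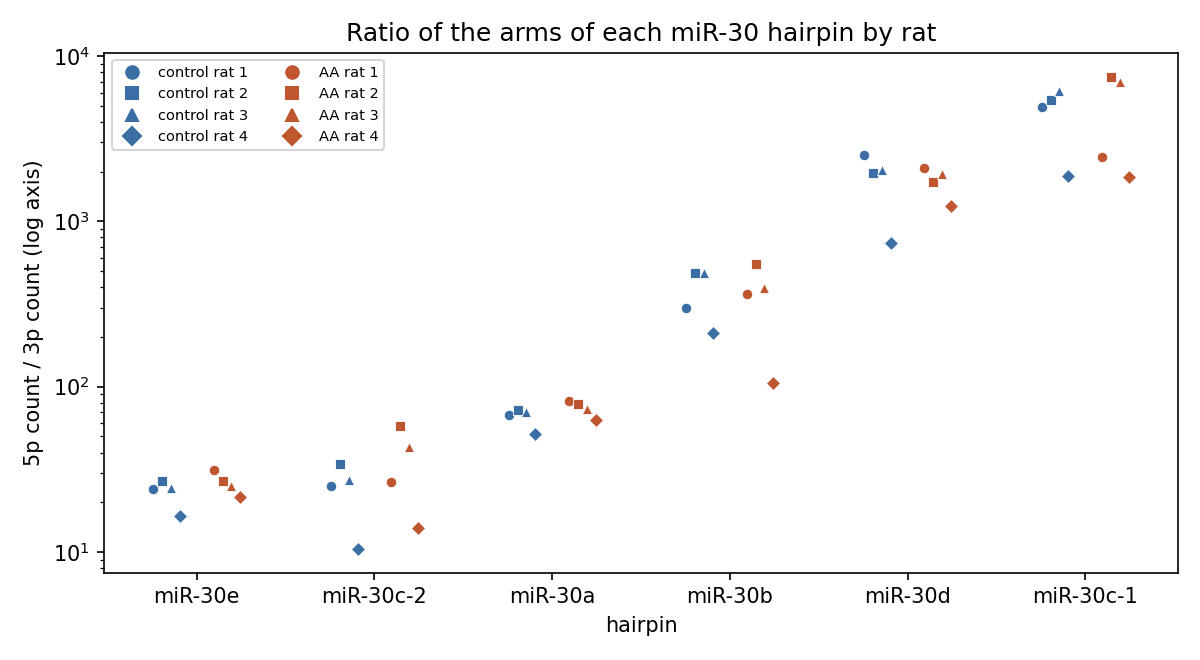
Ratio of the 5p to the 3p count (log axis) of the 6 miR-30 hairpins in each rat, with blue for control and orange for AA-treated animals and the shape giving the rat number. For miR-30c the same 5p count is set against both 3p arms. The diamonds of the rats numbered 4 are the lowest of their group in every hairpin, as for miR-30c-2 with 10.4 in control rat 4 and 13.9 in AA-treated rat 4.

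To place the family among the other miRNAs of the kidney, the profile of miR-30a over the 8 rats was compared with that of 239 miRNAs with a mean of at least 100 normalized counts. Likeness was the root mean square difference of the centred log2 values, which was 0.40 in the median. The nearest member was miR-30d at 0.10, second of all 239. miR-30e at 0.17 and miR-30a* at 0.19 ranked sixth and eighth, followed by miR-30c at 0.22, miR-30b-5p and miR-30e* at 0.30, miR-30d* at 0.52 and miR-30c-2* at 0.64. Outside the family the 5 nearest were miR-125b-5p at 0.07, miR-99b and miR-125a-5p at 0.13, miR-26b at 0.16 and miR-99b* at 0.18. None of these 5 was called in the comparison of the groups (edgeR adjusted p from 0.167 to 0.877). This measure favours miRNAs that vary little, and all values share the same size factors.

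Of the 18 miRNAs of the kidney epithelium list, 2 were called lower and 0 higher, beside 3.23% and 5.81% of all 620 miRNAs. Their median log2 fold change was -0.54, and all medians of the lists here are with size factors. The list summed to 30121 to 37513 CPM in the AA-treated animals, overlapping the 33185 to 75665 CPM of the control animals. miR-204, an epithelial miRNA, fell from 447 ± 103 to 247 ± 31.9 normalized counts (SD, n = 4 each, edgeR adjusted p = 0.0357), and the other was miR-194*, the lesser arm of miR-194. The call of miR-204 was lost with total counts (log2 fold change -0.57 in place of -0.86, edgeR adjusted p = 0.174), with TMM (adjusted p = 0.0513), without both rats numbered 4 (adjusted p = 0.0516), and without control rat 1, 2 or 4 or AA-treated rat 1 or 3 alone (adjusted p from 0.0745 to 0.0883). miR-192 and miR-194, which are abundant in renal tubules, had log2 fold changes of -0.84 (edgeR adjusted p = 0.168) and -0.77 (edgeR adjusted p = 0.0515). miR-194 was called lower by DESeq2 (adjusted p = 0.0229) and limma-voom (adjusted p = 0.0480). With edgeR it was called with the count filter, the replicate block and without AA-treated rat 1 (adjusted p from 0.0160 to 0.0454). It was not called with total counts (log2 fold change -0.53, edgeR adjusted p = 0.122) or TMM (adjusted p = 0.0620). The call was also absent without both rats numbered 4 (log2 fold change -0.52, edgeR adjusted p = 0.0880) and without any other single rat (0.0584 to 0.121). miR-192 was also highest in control rat 4, at 1124303 normalized counts against 328824 to 454738 in the other control animals, and its log2 fold change was -0.28 without this rat and -0.38 without both rats numbered 4. Marker miRNAs of other cell types were summed in the same libraries. The 6 listed miRNAs of a leukocyte list (miR-142, miR-223 and miR-150, both arms) summed to 818 to 1210.3 CPM in the control animals and to 2166 to 4459.7 in the AA-treated animals, without overlap, and 2 of them, miR-142-3p and miR-223, were called higher. The list of fibroblast and smooth muscle miRNAs (miR-199a, miR-214, miR-143 and miR-145, 8 members) had a median log2 fold change of 0.32 and summed to 161488 to 220317 CPM in control and 152546 to 184275 CPM in AA-treated animals, with overlap. The median log2 fold change was -0.42 for endothelium (miR-126, both arms) and -0.63 for red cells (miR-144 and miR-451, 4 members), and none of these 3 lists had a call. The part of cell composition in the values of the miR-30 family was not tested.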

How the data were processed

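Small RNA libraries of 8 rat kidneys (4 AA-treated, 4 control) were size-selected on a gel and sequenced by the authors on an Illumina Genome Analyzer II. The authors masked adaptors, removed contaminated reads and assigned the rest to the rat miRNAs of miRBase release 16 with the miRanalyzer webserver at its defaults, and the submitters' processing notes name CASAVA 1.7. The deposited values are raw read counts per mature miRNA and rat, not normalized or pooled. Groups and rat numbers come from the sample labels.

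From these counts, all 620 miRNAs were tested with edgeR 4.0.16 (quasi-likelihood, R 4.3.3) using median-of-ratios size factors, no covariate and no filter. Called were miRNAs with an adjusted p under 0.05 whose mean normalized counts differed over 1.5-fold. Arm ratios (counts plus 0.5, log2) were tested with limma 3.58.1 over 132 hairpins. Alternatives were TMM, total counts, DESeq2 1.42.0, limma-voom, a count filter, other folds, a replicate block and leaving out rats. Exact permutation tests run over 70 labelings. Rats are separate animals, and no 2 libraries were alike within sampling noise. The scripts were tested on simulated data. The members and lists were chosen with earlier results of these data known. Named were all members, miRNAs with the same seed, the 5 nearest profiles, and miR-192, miR-194 and miR-204. Other miRNAs, as miR-194*, miR-142-3p and miR-223, were named after their values were seen. Marker miRNAs miR-155 and miR-486 were not analysed here. The rest ran in Python 3.11.15 with numpy 2.4.6, scipy 1.17.1 and pandas 2.3.3.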

Additional observations from a re-analysis of the deposited data

Results flagged for a closer look

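In 5 of the 56 groups of 4 rats examined, 1 rat lay far from the other 3, judged by the gap to its neighbour as part of the whole range with Dixon's test at the 95% level. Chance gives such a gap in about 1 of 20 groups. In each of these 5 groups it was the rat numbered 4. Control rat 4 had 14506 normalized counts of miR-30c-2* against 4211 to 5527 in the other control animals, 374 of miR-30d* against 110.2 to 121, and 80.6 of miR-30c-1* against 24.6 to 27.0. It also had 1124303 normalized counts of miR-192 against 328824 to 454738. AA-treated rat 4 had 178 normalized counts of miR-30b-3p against 53.9 to 67.1 in the other AA-treated animals. The cause was not tested.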

How the results depend on the processing

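No member was called higher under any setting, and 1 was called lower with DESeq2 (miR-30e*), 1 with the replicate block (miR-30c-2*, log2 fold change -0.69, adjusted p = 0.0281 from edgeR), and 0 to 1 with each rat left out. The same number in both groups marks separate rats. Their deviations from their group means correlated by -0.01 to 0.45 over 240 miRNAs (mean 0.19). The highest value was that of the rats numbered 4, against 0.19 for number 2 and 0.15 for number 3. The mean for different numbers, -0.064, is no separate comparison, because the deviations within a group cancel. Of the 8 rats, 5 correlated best with their own number. These values are at most a hint of pairing from the data. The number was not taken as a pairing, because the correlation had to be over 0.1 for every pair and was not for the rats numbered 1. With the block the arm ratio difference of miR-30c and miR-30c-2* was 0.49 with an adjusted p of 0.0647 (limma), in place of 0.660. Over all miRNAs, 20 were called lower, against 11 with total counts (and 58 higher against 36), 12 with a fold over 2, and 13 to 25 with each rat left out, 13 without control rat 1. The share of the 5p members rose to 25.9% and 26.4% without miR-21 and miR-378 in the total.

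With total counts the log2 fold change turned to 0.028 for miR-30a, 0.077 for miR-30c, 0.19 for miR-30b-5p, 0.11 for miR-30c-1*, 0.041 for miR-99b, 0.21 for miR-125a-5p and 0.065 for miR-99b*. Without both rats numbered 4 it was 0.074 for miR-30b-5p and 0.20 for miR-30c-1*. With each rat left out it ranged from -0.19 to 0.033 for miR-30b-5p, -0.78 to 0.026 for miR-30d*, -0.35 to 0.57 for miR-30b-3p, -0.39 to 0.43 for miR-30c-1* and -0.15 to 0.038 for miR-125a-5p. The arm ratio difference ranged from -0.50 to 0.29 for miR-30b, -0.33 to 0.26 for miR-30d and -0.47 to 0.26 for miR-30c with miR-30c-1*, and without both rats numbered 4 it was 0.049 for miR-30b and -0.17 for miR-30d. The cause was not tested. With a minimum of 100 counts for the lesser arm, the ratios of miR-30b and of miR-30c with miR-30c-1* had no value. The 95% intervals of the rare members rest on the spread between rats as well as on counting error.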
